A study of Mus musculus with 48 samples.

Results

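The regions described here are 832 stretches of open mouse chromatin that were peaks in both stages of 13 myeloid clones and ranked lower in the monocytes than in the progenitors of nearly every clone. They were found by merging the peaks of 26 deposited lists, 1 monocyte and 1 progenitor list for each of clones 1 to 13, on chromosomes 1 to 19. Peaks that overlapped by at least 1 bp were joined, which gave 154639 merged regions, and 7884 of these held a peak in all 26 lists and are called shared regions. Within each list the shared regions were ranked by their highest first score as a percentile, where 100 is the highest. Members had a lower percentile in the monocyte list than in the progenitor list in at least 12 of 13 clones, with a mean difference of at least 10 points. These were 832 of 7884 shared regions (10.6%), and the same ranks chose them, so the values of clones 1 to 13 are given as a description without a test.

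The study profiled 24 clones of ER-Hoxb8 cells by ATAC-seq, in which a transposase inserts adapters into accessible DNA. Each clone gave 1 monocyte library, labelled as monocytic cells with titles ending in Minus, and 1 progenitor library, labelled as GMP (granulocyte and monocyte progenitor) cells with titles ending in Plus. All libraries, of both stages, come from mouse bone marrow cells that carry ER-Hoxb8 and were kept in medium with stem cell factor. Libraries that share a number come from a single clone, which has 1 library per stage, and the labels give no animal, age or strain. Spread between clones therefore also holds the technical spread between libraries.

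ER-Hoxb8 joins the homeodomain factor Hoxb8 to the hormone-binding part of the oestrogen receptor. While the hormone is present the fusion protein holds myeloid progenitors in a dividing, immature state, and after its removal the cells mature. During myeloid maturation, enhancers that serve progenitor genes lose accessibility while enhancers of monocyte genes gain it, and most promoters stay open in both stages. A region that keeps a peak in both stages of a clone but moves down in rank is therefore open in both, with less signal relative to the other shared regions. In bulk chromatin, fewer cells with an open site and a site less often open in each cell cannot be told apart. The lists are in mm9 coordinates. Positions are given in that build, and gene positions were not used here, so neither the regions nor the labelled cell types are set against named genes or marker loci.

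Lists of clones 1 to 13 held 13606 to 32285 peaks in monocytes and 11114 to 106708 in progenitors. The score of each list fell on an evenly spaced ladder, and if 1 step is 1 tag, the median member rested on 26 to 182 tags in monocyte lists and on 30 to 728.5 in progenitor lists, with the fewest in the progenitor list of clone 11. A 95% Poisson interval on those tags spanned 8.62 to 38.6 percentile points at the median member of a monocyte list and 8.00 to 52.6 points of a progenitor list, the widest again in clone 11. These intervals cover counting error only. A percentile point stands for 78.8 shared regions.

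The members covered nearly the whole range of signal. Their mean percentile had a median of 36.6 in monocytes (quartiles 18.2 and 58.4) and of 59.9 in progenitors (41.2 and 80.5). The mean difference, monocyte minus progenitor, ran from -55.4 to -10.03 points with a median of -19.3. It was at least 15 points in 618 members, at least 20 in 382, at least 30 in 111, at least 40 in 26 and at least 50 in 4. Most members were thus moderate shifts among regions of intermediate rank, and few were near the bottom of the monocyte lists after standing high in progenitors.

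**Figure D1:**
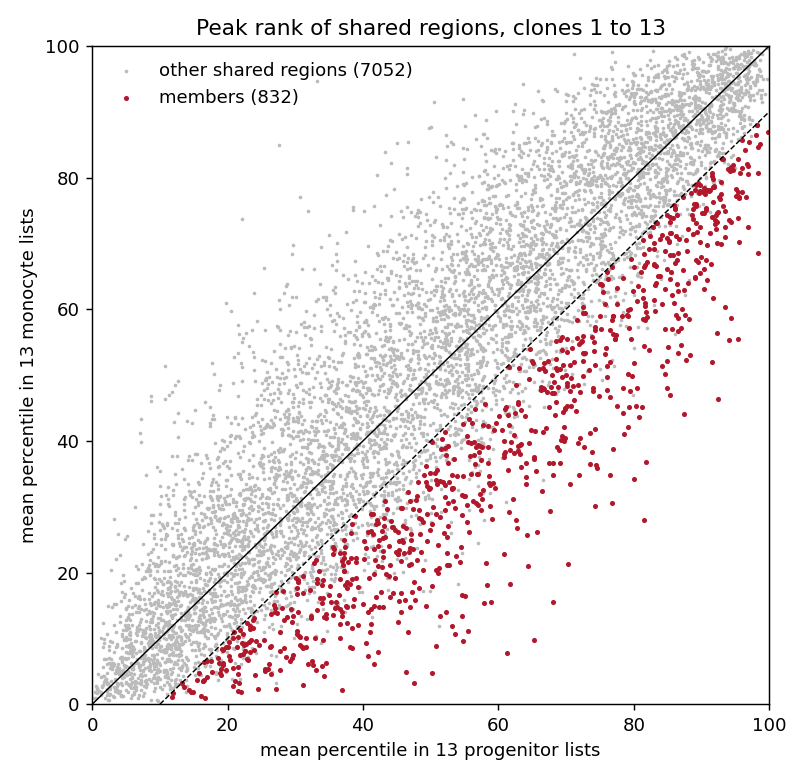
Mean percentile of each shared region in the 13 monocyte lists (vertical axis) against that in the 13 progenitor lists (horizontal axis) of clones 1 to 13. Red points are the 832 members and grey points the 7052 other shared regions; the solid line marks equal ranks and the dashed line a difference of 10 points, so that grey points under it were lower in fewer than 12 clones.

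Limits of the rule fall within a continuum. The 3 members closest to the limit had mean differences between -10.1 and -10.03 points, and the 3 shared regions just outside it -9.96, -9.96 and -9.95. The innermost member, chr17:33495529-33495971, averaged 3.22 ± 2.85 in monocyte lists and 13.3 ± 7.81 in progenitor lists (SD, n = 13 each). Its neighbour outside the limit, chr4:133466546-133467088, averaged 71.1 ± 9.09 in monocyte lists and 81.1 ± 7.34 in progenitor lists (SD, n = 13 each). A further 700 shared regions had a mean difference of at least 10 points but were lower in fewer than 12 clones.

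Clones differed in how far the members moved. In 334 members the monocyte percentile was lower in all 13 clones and in 498 in 12 clones. Clone 11 was the exception in 238 of those 498, clone 10 in 72, clone 3 in 43 and clone 13 in 42, while clones 4, 5 and 8 were so in 3, 2 and 4. The median member difference was -8.17 points in clone 11, against -15.9 to -25.8 in the other 12 clones. In clone 11 the counting intervals of the monocyte and progenitor percentiles were apart, in the direction of the rule, in 16.6% of members, against 35.9% in clone 10, 45.8% in clone 3 and 67.5% to 88.3% in the other 10 clones. Over all shared regions that share was 9.17% in clone 11 and 13.3% to 31.5% in the other 12. The smaller shift of clone 11 thus coincides with the thinnest progenitor list, and the part of tag number in it was not tested.

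**Figure D2:**
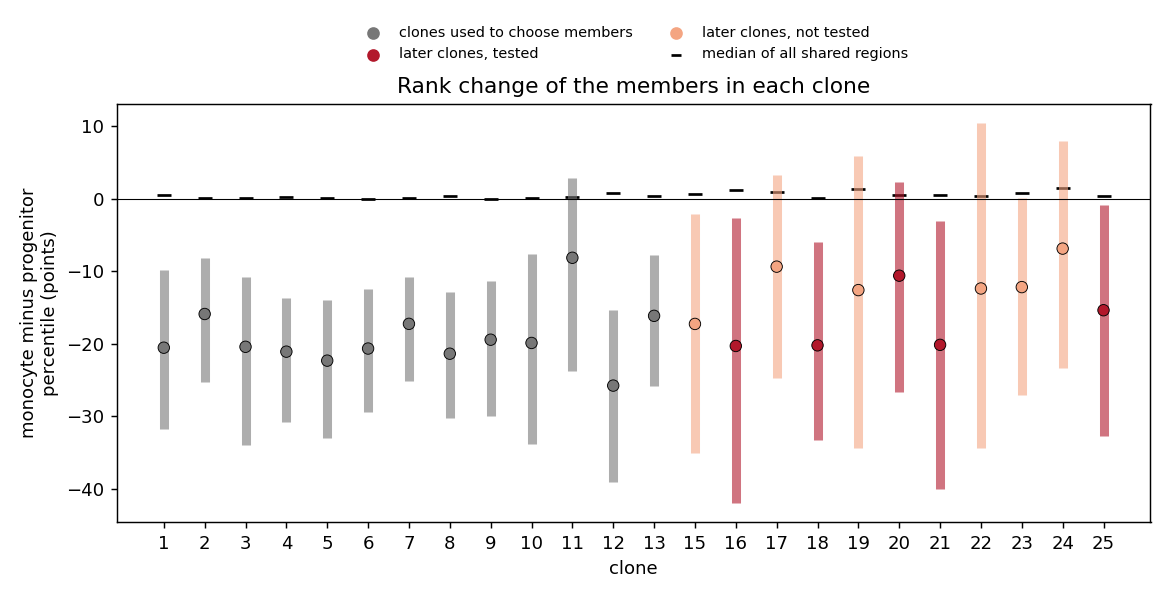
Monocyte minus progenitor percentile of the 832 members in each of 24 clones, in points. Dots are medians and bars reach from the first to the third quartile; black dashes are medians of all 7884 shared regions; grey marks the clones that chose the members, red the 5 later clones tested and orange the 6 later clones not tested. All 24 member medians lie below 0, from -6.90 in clone 24 to -25.8 in clone 12.

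The regions with the largest differences ranged from sites near the floor of the monocyte lists to sites that stayed mid-ranked. The largest, chr8:74189485-74189882, had monocyte percentiles of 0.108 to 37.7 (median 5.07) and progenitor percentiles of 37.0 to 78.9 (median 71.1), so the highest monocyte list just passed the lowest progenitor list. It rested on as few as 8 tags in a monocyte list and 26 in a progenitor list. At chr17:27962970-27963305 the monocyte lists lay between 0.755 and 18.6 (median 6.26) and the progenitor lists between 26.4 and 90.3 (median 69.7), with no overlap.

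A region on chromosome 7, chr7:6335858-6336096, had monocyte percentiles of 20.4 to 41.6 (median 26.3) and progenitor percentiles of 65.1 to 94.5 (median 81.9). Here the stages were apart by more than 20 points at their nearest lists, and the tags numbered at least 20 in monocytes and 40 in progenitors. A region on chromosome 8, chr8:4214407-4214683, had 2.59 to 32.6 (median 14.7) in monocytes and 43.9 to 92.8 (median 68.4) in progenitors, again without overlap. The highest starting level among the 12 largest belonged to chr18:67448534-67448899, with 27.7 to 58.1 (median 47.1) in monocytes and 71.7 to 97.8 (median 94.6) in progenitors. That site was among the highest peaks of most progenitor lists and near the middle of the monocyte lists, but by the second score its mean difference was 19.9 points, the opposite direction.

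The other 7 of the 12 were chr17:86544395-86544658, chr1:132922483-132922758, chr7:95426396-95426718, chr10:7065228-7065471, chr10:31033050-31033508, chr16:91465098-91465349 and chr10:26519466-26519841. Their mean differences lay between -48.9 and -44.5 points. Of all 12, 11 were lower in 13 of 13 clones, with chr10:31033050-31033508 lower in every clone but clone 11, and 6 had no overlap between the stages. The second score gave smaller differences at chr7:95426396-95426718, chr16:91465098-91465349, chr7:6335858-6336096 and chr17:27962970-27963305, at -2.03, -7.43, -19.3 and -22.1 points. Over all members, 77 of 832 had every monocyte percentile below every progenitor percentile, where 1.00% of all shared regions did. The rule used these ranks, so nothing is read from that contrast.

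**Figure D3:**
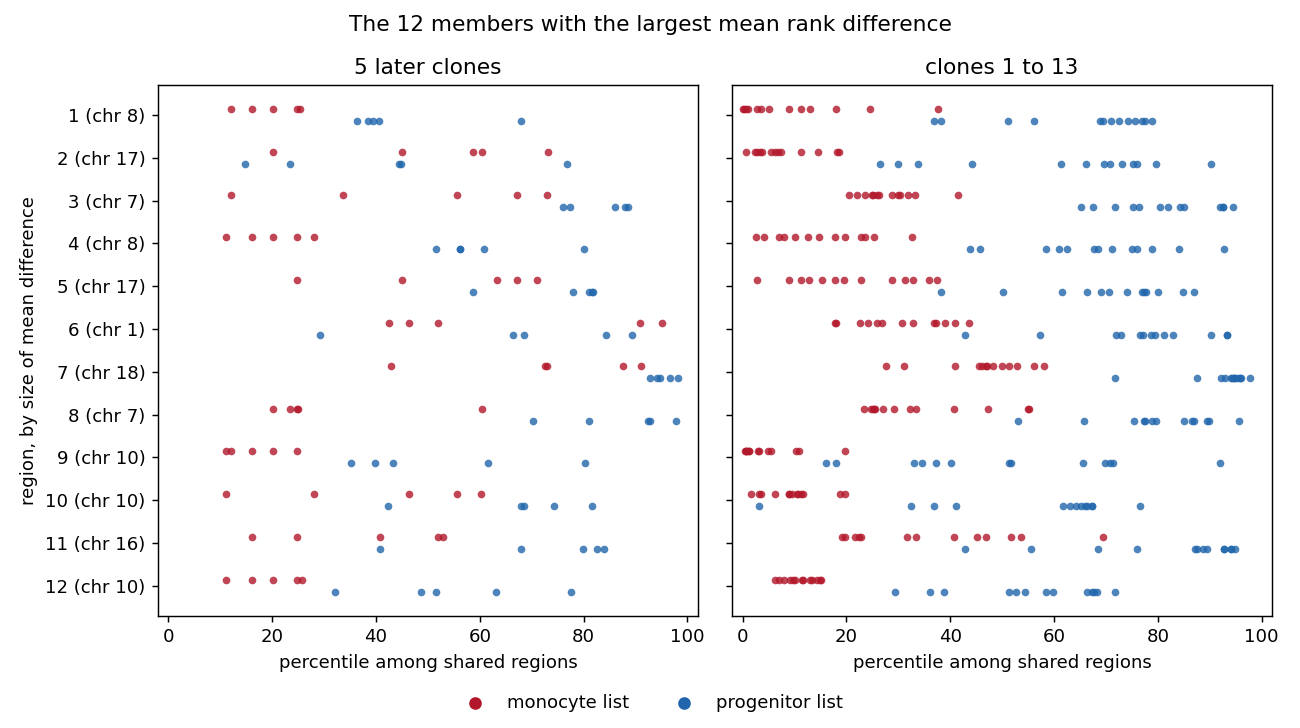
Percentile among shared regions in each list for the 12 members with the largest mean difference, numbered from the largest, in the 5 later clones (left) and in clones 1 to 13 (right). Each red dot is a monocyte list and each blue dot a progenitor list. The stages do not overlap in 7 of the 12 in the later clones and in 6 of the 12 in clones 1 to 13, which chose the members; in the later clones region 2 on chromosome 17 has 4 of 5 clones higher in monocytes.

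Clones 15 to 25 took no part in choosing the members and give the same measure in other cells. The comparison used clones 16, 18, 20, 21 and 25, whose lists both hold at least 10000 peaks. In these the shared regions were ranked in the same way, and a region without a peak in a list was tied with all other such regions at the lowest rank. That tied rank was the percentile 24.8 in the monocyte list of clone 16, 11.1 in clone 18, 20.2 in clone 20, 16.0 in clone 21 and 12.1 in clone 25. Later monocyte lists held a peak in 41.5% to 66.1% of members and in 50.4% to 77.8% of shared regions, against 99.5% to 100% and 97.01% to 99.99% in the later progenitor lists. Members with a peak there rested on a median of 14 to 30 tags in monocyte lists and 25 to 767.5 in progenitor lists. The progenitor lists of clones 21 and 25 were the thinnest of the 5, with medians of 39 and 25 tags, and the monocyte list of clone 20 held the most peaks (38786) but only 4701 of the shared regions, so results without these clones are given beside the main ones.

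In these 5 clones the members again stood lower in monocytes. The mean percentile of a member had a median of 38.4 in monocytes and 62.9 in progenitors, and over all shared regions it was 47.6 and 49.6. The median member difference was -18.8 points, against -0.0038 points over all shared regions, and 715 of 832 members had a negative difference, against 3942 of 7884 shared regions. By clone the median member difference was -20.3 points in clone 16, -20.2 in clone 18, -10.6 in clone 20, -20.2 in clone 21 and -15.4 in clone 25, a mean of -17.4 ± 4.31 (SD, n = 5). All 5 lay below 0, and the shift was smallest in clone 20. In clone 16 the median member percentile in monocytes was 24.8, the tied rank of a missing peak. The median difference of clone 16 therefore depends on that rank.

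With limma, paired by clone over all 7884 shared regions, 301 of 832 members fell in the monocytes of the later clones (Benjamini-Hochberg adjusted p below 0.05), or 36.2%, where 13.0% of all shared regions were called lower. Another 12 members, or 1.44%, were called higher, where 14.8% of shared regions were. The other members passed in neither direction. The tied rank of a missing monocyte peak, 11.1 to 24.8, can lift low-ranked regions and add to the share called higher. Shared regions with a mean percentile of at most 25 in clones 1 to 13 had a median later difference of 9.40 points, against -11.9 in members at that level. The part of tied ranks was not tested. A monocyte percentile below the progenitor percentile in 5 of 5 clones was found in 368 members (44.2%), where 17.1% of shared regions had it. Every later monocyte percentile was below every later progenitor percentile in 223 members (26.8%), where 9.60% of shared regions had it. The mirror set, the 920 shared regions that were higher in monocytes by the same limits in clones 1 to 13, had 9 regions called lower and 323 called higher in the later clones.

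The count depended on which clones were in the fit. It ranged from 163 to 319 members when 1 clone was left out, with 163 without clone 16 and 166 without clone 18, where 6.33% and 7.08% of shared regions were called lower. It was 215 without clone 21 (background 8.79%). Without clones 21 and 25 it was 129 (background 5.05%), and without clones 16, 20 and 21, which leaves 2 clones, limma called 0 members and 0 shared regions, with 320 members lower at an unadjusted p below 0.05. The deposited names of progenitor lists carry a code whose meaning is not stated, and values were also taken within it: CRb1 for clones 1 to 13 and 16, CRb3 for clones 18 and 20, and CRb2 for clones 21 and 25. The median member difference was -16.4 points within CRb3 and -18.4 within CRb2, with 10 and 0 members called (background 0.520% and 0%) and 201 and 208 lower at an unadjusted p below 0.05. In the main limma fit 441 of 832 members and 1580 of 7884 shared regions were lower at an unadjusted p below 0.05. The count over all shared regions is not given for the fits of 2 clones, so nothing is read from their unadjusted counts. Clone 16 alone, of code CRb1, gave the median of -20.3 above, which depends on the tied rank of a missing peak, and no test.

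The second score of the lists, whose meaning is not stated, gave fewer calls. Ranked by it, 58 members were called lower (background 2.55%), with a median member difference of -9.67 points. Centring each clone on its chromosomes' medians, a setting added after seeing the data, gave 230 (background 9.21%).

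**Figure D4:**
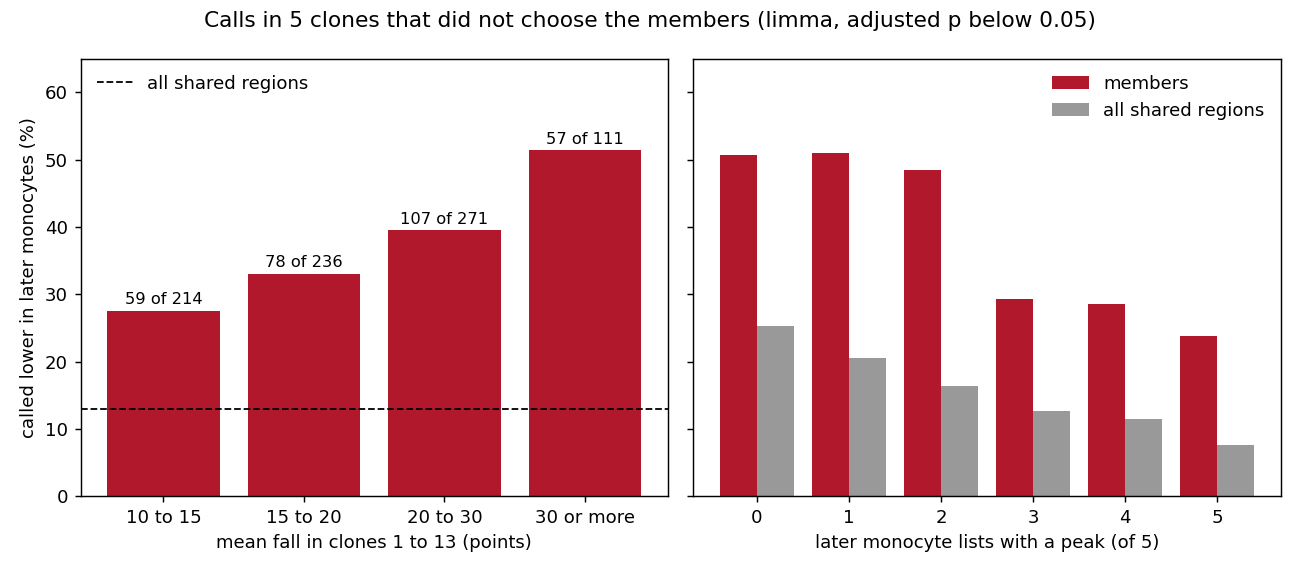
Share of members called lower in the monocytes of the 5 later clones (limma, adjusted p below 0.05), by the size of their mean fall in clones 1 to 13 (left, with counts over the bars) and by how many of the 5 later monocyte lists held a peak (right). Red bars are members; the dashed line and grey bars are all shared regions. The share goes up from 27.6% to 51.4% over the size classes, and in each class on the right members stand above all shared regions.

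Members with a larger difference in clones 1 to 13 were called more often in the later clones. Of the 214 members between 10 and 15 points, 59 were called lower (27.6%), and of the 236 between 15 and 20 points, 78 (33.1%). Of the 271 between 20 and 30 points, 107 were called lower (39.5%), and of the 111 at 30 points or more, 57 (51.4%). The median later difference of these classes was -11.9, -17.7, -21.4 and -26.9 points, and it was farther below 0 in each larger class. Being lower in all 13 clones made little difference to the share: 123 of 334 such members (36.8%) were called, against 178 of the 498 lower in 12 (35.7%).

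Whether a region kept a peak in the later monocyte lists was tied to the calls. Of the members, 136 (16.3%) had no peak in any of the 5 later monocyte lists, against 8.65% of shared regions, and 240 (28.8%) had a peak in all 5, against 34.0%. Among the 136, 69 were called lower (50.7%), where 25.2% of the shared regions without such a peak were. Every monocyte value in this class is a tied rank, so these calls hold no monocyte spread of the regions themselves. Among the 240, 57 were called lower (23.8%), where 7.68% of shared regions with a peak in all 5 were. Members exceeded the background in both classes. When the fit took only the 2652 regions with a peak in all 10 later lists, 107 of the 239 members among them were called (44.8%), where 15.4% of those regions were.

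The share called also varied with the level of a region. Regions were grouped by their mean percentile over all 26 lists of clones 1 to 13. Below a mean percentile of 25, 33 of 147 members were called lower (22.4%), where 4.23% of shared regions at that level were. From 25 to 50 it was 118 of 285 (41.4%, background 13.7%), from 50 to 75 it was 84 of 252 (33.3%, background 15.8%), and above 75 it was 66 of 148 (44.6%, background 17.5%). Members at every level exceeded shared regions of that level, and the lowest level gave the fewest calls.

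Of the 12 members with the largest early differences, 8 were called lower in the later clones and 11 had a negative difference. At chr7:95426396-95426718 the later monocyte percentiles were 24.8, 23.4, 20.2, 60.5 and 24.9 in clones 16, 18, 20, 21 and 25, and the progenitor percentiles 97.8, 81.1, 92.5, 92.8 and 70.2. The difference was -56.1 ± 10.0 points (SE, limma adjusted p = 0.00470), lower in 5 of 5 clones without overlap, and the values in clones 16 and 20 are the tied rank of a missing peak. This site moved at least as far in the later clones as in clones 1 to 13, where the mean difference was -45.9 ± 16.6 points (SD, n = 13).

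At chr8:4214407-4214683 the later monocyte percentiles were 24.8, 11.1, 20.2, 16.0 and 28.0 and the progenitor percentiles 80.1, 51.6, 60.8, 56.1 and 56.2. The difference was -40.9 ± 8.75 points (SE, limma adjusted p = 0.00773), and clone 25 alone had a monocyte peak. At chr7:6335858-6336096 the monocyte percentiles were 55.5, 33.6, 67.1, 73.0 and 12.1 and the progenitor percentiles 88.0, 77.4, 88.5, 86.0 and 76.1. Both regions were lower in 5 of 5 clones without overlap, the second by -34.9 ± 9.52 points (SE, limma adjusted p = 0.0186).

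The largest early difference of all, chr8:74189485-74189882, had 24.8, 25.3, 20.2, 16.0 and 12.1 in later monocytes and 40.5, 36.3, 68.0, 39.5 and 38.5 in later progenitors. The difference was -24.9 ± 7.95 points (SE, limma adjusted p = 0.0349), smaller than in clones 1 to 13, and of the 5 later monocyte lists that of clone 18 alone held a peak. The highly ranked chr18:67448534-67448899 had a peak in all 10 later lists, with 87.6, 72.5, 91.0, 73.0 and 42.9 in monocytes and 94.6, 96.7, 98.2, 92.8 and 94.2 in progenitors. It fell by 21.9 ± 6.28 points (SE, limma adjusted p = 0.0229), again in 5 of 5 clones. The later calls of chr10:7065228-7065471, chr10:26519466-26519841 and chr16:91465098-91465349 had differences of -35.2, -35.1 and -33.7 points (limma adjusted p = 0.0108, 0.0152 and 0.0455), the last with overlap and 4 of 5 clones lower. A peak was present at these sites in 0, 1 and 3 of the 5 later monocyte lists, so the sizes and the p depend on the tied rank of a missing peak.

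The other 4 of the 12 did not pass. The region chr17:27962970-27963305, second largest in clones 1 to 13, had 73.2, 45.0, 20.2, 60.5 and 58.6 in later monocytes and 23.5, 44.3, 76.7, 14.7 and 44.8 in later progenitors. The difference was 10.7 ± 13.9 points (SE, limma adjusted p = 0.588), with clone 20 alone lower in monocytes. The region chr1:132922483-132922758 gave -2.18 ± 13.8 points (SE, limma adjusted p = 0.922), with clones 18 and 25 higher in monocytes at 90.9 and 95.1 against 68.4 and 29.2 in progenitors. At chr17:86544395-86544658 and chr10:31033050-31033508 the differences were -21.9 and -26.7 points (limma adjusted p = 0.125 and 0.103), each lower in 4 of 5 clones. A large and uniform difference in clones 1 to 13 was therefore not always met by the later clones.

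The 10 members with the smallest adjusted p in the later clones were other regions, with later differences of -62.5 to -45.9 points and early ones of -32.2 to -14.2. All 10 were lower in 5 of 5 clones without overlap. The later values chose these 10, which favours large and uniform later differences. Nothing is therefore read from their direction, their lack of overlap or their excess over the early differences. The first, chr3:14611219-14611469, had a peak in all 10 lists, with 59.97, 42.4, 45.0, 46.4 and 54.1 in monocytes and 96.6, 96.8, 94.7, 95.3 and 94.2 in progenitors. Its difference of -45.9 ± 7.06 points (SE, limma adjusted p = 0.00362) compares with 74.4 ± 6.07 in monocytes and 88.6 ± 11.4 in progenitors of clones 1 to 13 (SD, n = 13 each), where clone 11 was not lower. Ranked by the second score, the later difference of this region was 12.4 points, the opposite direction. The mean progenitor rank was thus high in both sets of clones, and every later monocyte value lay below the early monocyte mean.

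Another site ranked high in progenitors was chr11:3166357-3166588. Later monocytes had 24.8, 33.6, 67.1, 57.3 and 33.1 and later progenitors 96.2, 94.8, 95.5, 95.5 and 95.6. The difference was -52.4 ± 8.72 points (SE, limma adjusted p = 0.00426), against -27.3 ± 15.6 in clones 1 to 13 (SD, n = 13). Clone 16 had no monocyte peak there, and by the second score the later difference was 22.6 points, again the opposite direction.

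The 4 members chr1:4847631-4847916, chr13:89878930-89879187, chr7:6237950-6238157 and chr7:112892811-112893018 had a peak in none of the later monocyte lists and in all 5 later progenitor lists. Their differences were -59.5, -62.5, -53.4 and -58.3 points (limma adjusted p = 0.00362 for the first and 0.00426 for the others), with later progenitor percentiles of 47.97 to 94.3. For these the size and the p depend on the rank given to a missing peak. All 4 have the same 5 monocyte values, which hold no monocyte spread of their own. The last 4 were chr17:56031331-56031744, chr1:108656265-108656457, chr1:9934087-9934330 and chr18:85120930-85121119, with a monocyte peak in 1, 2, 1 and 2 of the later lists and differences of -61.1, -62.4, -58.4 and -60.6 points. Of these 10 members, 3 lie on chromosome 1. Ranked by the second score, chr13:89878930-89879187, chr1:9934087-9934330, chr1:108656265-108656457 and chr18:85120930-85121119 had differences of -48.6, -37.96, -14.6 and -6.07 points and were no longer called.

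The 6 other later clones, 15, 17, 19, 22, 23 and 24, have monocyte lists of 231 to 7378 peaks and were not part of the test. Their median member differences were -17.3, -9.39, -12.6, -12.4, -12.2 and -6.90 points, against 0.342 to 1.48 over all shared regions. These monocyte lists held a peak in 1.32% to 43.4% of members and in 1.75% to 51.7% of shared regions. In all 6 the median member percentile was the tied rank of a missing peak, so nothing is read from these medians. The part of missing peaks in them was not tested. With 10 later clones, leaving out clone 22, limma called 442 members lower (53.1%), where 22% of shared regions were. An exact two-sided sign-flip permutation test over the same 10 clones with Benjamini-Hochberg adjustment called 412, where 20.1% of shared regions were.

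Chromosomes differed in their share of members. Chromosome 18 had 36 members among 210 shared regions (17.1%), chromosome 13 had 45 of 296 (15.2%), chromosome 3 had 51 of 352 (14.5%) and chromosome 1 had 66 of 459 (14.4%). The lowest shares were 18 of 285 on chromosome 19 (6.32%), 42 of 604 on chromosome 2 (6.95%) and 26 of 362 on chromosome 6 (7.18%). The mirror set ran the other way on chromosomes 1 and 18, with 17 (3.70%) and 10 (4.76%) regions, and was most frequent on chromosomes 17 (17.9%) and 11 (16.8%). Whole chromosomes were shifted as well, only partly in step with these shares. The median difference of all shared regions was -2.83 points on chromosome 1 and -3.49 on chromosome 18, and 2.11 on chromosome 11 and 2.61 on chromosome 19. Chromosomes 17 and 8 had medians of 1.80 and 1.02 points yet member shares of 11.6% and 11.8%, and chromosome 6, with a low share, had a median of 0.714 points.

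Centring on chromosomes narrowed the range of shares. When each clone's differences were centred on the median of their chromosome, a setting added after seeing the data, 871 regions met the rule, 773 of them members. The share on chromosome 18 was then 13.3%, on chromosome 1 it was 11.1%, on chromosome 13 it was 11.1% and on chromosome 19 it was 11.2%. Chromosomes 17 and 8 then stood at 13.3% and 13.5%, and chromosome 6 was lowest at 7.46%. In the later clones the shared regions called lower made up 22.4% on chromosome 18 and 6.90% on chromosome 11, and the share of members called lower was largest on chromosome 10, 24 of 39 (61.5%), where 14.5% of its shared regions were called. It was smallest on chromosome 16, 6 of 33 (18.2%), close to the 14.9% of the shared regions there.

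**Figure D5:**
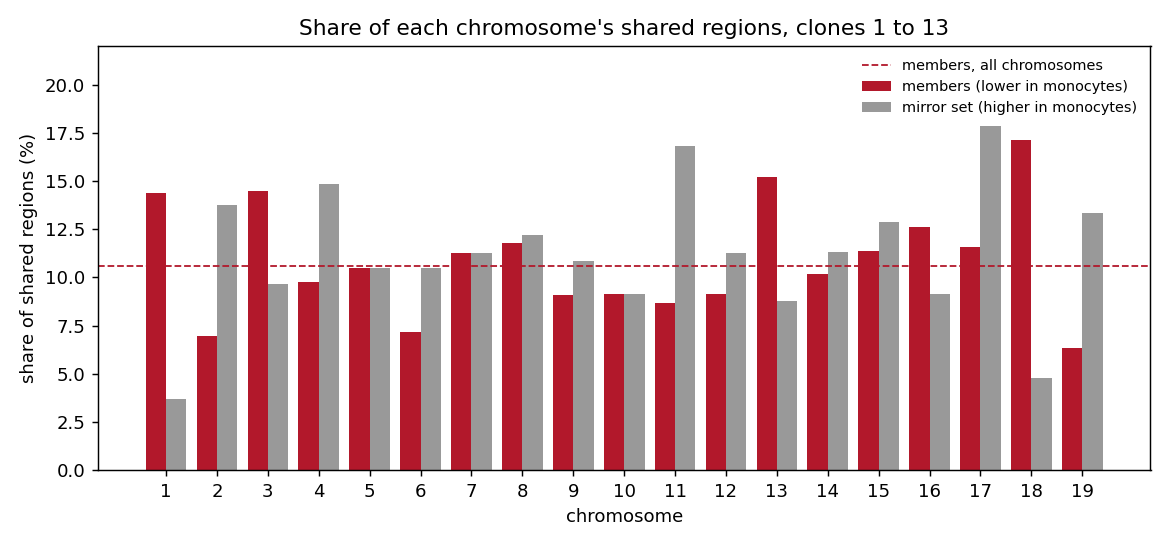
Share of the shared regions of each chromosome that are members (red) or belong to the mirror set of regions higher in monocytes (grey), clones 1 to 13; the dashed line is the 10.6% of members over all chromosomes. Members are most frequent on chromosome 18 and least on chromosome 19, and the mirror set is scarce on chromosomes 1 and 18.

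The members were mostly scattered single sites. Another member lay within 50 kb of 92 members (11.1%), and a member lay within 50 kb of 9.93% of all shared regions, so members were near members about as often as any shared region was. The mirror set was more clustered, with 19.0% of its regions within 50 kb of another, against 12.7% of all shared regions. Joining members at most 50 kb apart left 740 single members, 35 pairs and 7 groups of at least 3, which together held 22 members. These are counts without a test.

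The direction of the nearest shared region was counted by its distance, without a test. The nearest other shared region lay within 1 kb for 40 members, and 31 of those neighbours had a negative mean difference (77.5%), against 57.0% for shared regions with a neighbour that close. At 1 to 5 kb it was 21 of 39 (53.8%, against 48.7%), at 5 to 20 kb 94 of 170 (55.3%, against 47.2%), and at 20 to 100 kb 185 of 363 (51.0%, against 49.1%). Beyond 100 kb it was 116 of 220 (52.7%, against 53.2%), so the shares did not fall steadily with distance past 1 kb. The median difference of the neighbour was -6.11 points within 1 kb and between -1.52 and -0.176 in the classes beyond it.

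The groups of at least 3 members were chosen for a closer description after their values were seen. On chromosome 17, from 21560031 to 21626019, 3 members stood with no other shared region between them, at chr17:21560031-21560324, chr17:21587191-21587462 and chr17:21625797-21626019. They averaged 7.29, 33.7 and 23.9 in monocytes and 40.7, 52.7 and 54.4 in progenitors of clones 1 to 13. In the later clones the 3 differences were -41.6 ± 10.4, -42.5 ± 9.62 and -41.4 ± 10.5 points (SE, limma adjusted p = 0.0131, 0.00931 and 0.0137), each lower in 5 of 5 clones. A peak was present at the 3 sites in 1, 3 and 1 of the later monocyte lists. This was the only group of the 7 in which every member was called.

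A group on chromosome 8, from 4214407 to 4276026, held 4 members among 5 shared regions and contains the region at 4214407 described above. Its other members had early differences of -15.001, -14.9 and -23.5 points and later ones of -11.6, -5.90 and -20.5 points, and none of these 3 was called. On chromosome 11, from 49988170 to 50050491, 3 members among 4 shared regions had a mean later difference of -37.0 points and 2 calls. The groups on chromosomes 7 and 18 had 1 call each, and those on chromosomes 5 and 16 had 0, so closeness of members did not go with uniform calls in the later clones.

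In shape the members resembled other shared regions. Their median merged width was 259 bp, against 254 bp for all shared regions, and 742 of 832 (89.2%) held exactly 1 peak in each of the 26 lists, against 87.9%. More than 1 peak per list, as a mean above 1.5, was found in 0.361% of members in monocytes and in 4.45% in progenitors, against 0.381% and 5.53% of shared regions. The peak centre of the stages, as the median over lists, differed by a median of 23 bp in members and 25 bp in all shared regions, and by more than 100 bp in 38 members (4.57%, against 3.50%). Merging overlapping peaks into narrow regions limits these offsets in advance, so nothing about the members is read from their small size.

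Peak centres varied more between clones in the stage of lower rank. The spread of the centre between clones had a median SD of 25.4 bp in monocytes and 19.3 bp in progenitors for members, and of 19.5 bp and 30.2 bp for the mirror set. Over all shared regions it was 22.2 bp and 24.02 bp. Tag number moves with rank, and its part in this spread was not tested. The percentile of a member varied between clones with a median SD of 7.63 points in monocytes and 10.7 points in progenitors, close to the 7.52 and 10.2 points of all shared regions.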

How the data were processed

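ATAC-seq peak lists of 48 libraries (24 clones, 2 stages) were used as deposited by the authors, in mm9 coordinates. Per the submitters' processing notes the aligner was BWA (no version). For the peak caller, read filters, transposase shift and scaling, the answer is not given in the sources used here, and total depth is unknown. Both deposited score columns are unnamed by the authors. In the lists of clones 1 to 13 and of the 5 tested clones, 93.4% to 100% of first scores below 40 steps lay on the ladder (tolerance 0.1 step), so 1 step was read as 1 tag.

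Scores were turned into percentiles within each list (ties averaged), because scores of different lists may not share a scale. Percentiles of clones 16, 18, 20, 21 and 25 were fitted with limma 3.58.1 (R 4.3.3; clone as block, variance trend, Benjamini-Hochberg at 0.05 over 7884 regions). The clone number pairs the libraries by the series' design; deviations of same-numbered libraries from their stage means correlated at -0.0639 to 0.108 in these clones and -0.117 to 0.403 in clones 1 to 13. Members, limits and tests were chosen with earlier results of these data known. Named regions are the 12 members with the largest mean difference, the 10 with the smallest later adjusted p and the 3 on either side of the limit of 10 points; a part of the rule for gene lists could not be applied, since gene tables of the files' build were not used here.

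The limma step was tested on simulated data with 200 changed regions among 7884 in each of 3 runs. It recovered 0%, 1.00% and 50.5% of differences of 10, 20 and 40 points, with 0, 0 and 2 false calls. With more changed regions, as in the data, the adjusted threshold is looser. Alternatives were other scores, filters, clones, scales and merges.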

Additional observations from a re-analysis of the deposited data

Results flagged for a closer look

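Values of the later clones were looked at in 57 groups of 5. Chance gives about 1 in 20 groups with a value apart from the rest if groups are independent. Several named regions share the same 5 tied monocyte ranks, so that rate does not hold here. In 4 groups a value stood apart from the rest. These were the progenitor percentile of 68.0 in clone 20 at chr8:74189485-74189882, the progenitor percentile of 58.7 in clone 25 at chr17:86544395-86544658, the monocyte percentile of 60.5 in clone 21 at chr7:95426396-95426718, and the progenitor percentile of 79.4 in clone 25 at chr16:5255980-5256185, a region just outside the limit.

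At 9 members the monocyte percentile was lower in 13 of 13 of the first clones and higher in 5 of 5 later clones. The difference between the sets of clones was not tested, and the share of all shared regions higher in 5 of 5 is not given here. A missing peak takes a tied rank of 11.1 to 24.8 in the later monocyte lists, so a low-ranked site can stand higher there without a peak. At chr11:95695556-95695945 the mean was 24.9 in later monocytes and 4.53 in later progenitors. The largest later difference was 41.3 points at chr18:3005601-3005994, which averaged 97.7 in later monocytes and 56.4 in later progenitors, and 6.32 in monocytes and 34.6 in progenitors of clones 1 to 13. The others had later differences of 11.5 points at chr1:89223370-89223621, 17.1 at chr1:95721727-95722194, 13.0 at chr2:80155530-80155836, 15.8 at chr7:28338046-28338333, 28.9 at chr7:31179449-31179768, 20.3 at chr11:95695556-95695945, 23.6 at chr16:33251394-33251670 and 23.6 at chr17:35959938-35960484.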

How the results depend on the processing

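Ranked by the second score, 499 regions met the rule, of which 191 were among the 832 members. Stricter limits kept 334 members (lower in 13 of 13 clones) and 382 (at least 20 points), and leaving out 1 clone gave 826 to 1073 regions. In the later clones, where 301 members and 1025 shared regions were called lower and 1169 higher, the second score gave 58, 201 and 143, with a median member difference of -9.67 points. The cause was not tested. Regions with a peak in all 10 later lists gave 107, 409 and 393, and those with a peak in at least 8 lists 157, 664 and 634, with fewer regions tested by construction. Without clones 21 and 25 the counts were 129, 398 and 627, and without clones 16, 20 and 21 they were 0, 0 and 0. Within code CRb3 they were 10, 41 and 47, and within CRb2 0, 0 and 9, with 2 clones each. Leaving out 1 clone gave 163 to 319 members and 499 to 1090 lower and 558 to 1205 higher shared regions, and medians of -19.8 to -17.4. With 10 later clones 1732 shared regions were lower and 1913 higher, and with the exact sign-flip permutation test 1581 were lower. Without clone pairing (no replicate block) 319 members were called, where 1091 shared regions (13.8%) were. Centring per chromosome, added after seeing the data, gave 230 members called and a median member difference of -15.4, against 2.14 over all shared regions. By the second score, 3 named regions turned round: chr18:67448534-67448899 to 19.9 points in clones 1 to 13, and chr3:14611219-14611469 and chr11:3166357-3166588 to 12.4 and 22.6 points in the later clones. Its early values for 5 others of the 12 largest moved beyond their spread, to -2.03 (chr7:95426396-95426718), -7.43 (chr16:91465098-91465349), -19.3 (chr7:6335858-6336096), -22.1 (chr17:27962970-27963305) and -32.6 points (chr1:132922483-132922758). In the later clones it ended the calls of chr18:85120930-85121119 (-6.07 points), chr1:108656265-108656457 (-14.6), chr1:9934087-9934330 (-37.96) and chr13:89878930-89879187 (-48.6). Few tags in the later monocyte lists limit these ranks.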

Other observations

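Among the 12 members called higher in the later clones, chr17:63232286-63232528 had the largest early difference, -42.6 points. It averaged 15.3 in monocytes and 57.9 in progenitors of clones 1 to 13, and 31.7 in monocytes and 0.611 in progenitors of the later clones (difference 31.1 ± 7.66 points, SE, limma adjusted p = 0.0124). The later progenitors therefore ranked this site near the bottom of the shared regions, where the first 13 progenitor lists ranked it above the middle. A region without a peak takes a tied rank of 11.1 to 24.8 in the later monocyte lists. In the later progenitor lists that tied rank is far lower, near the bottom of the shared regions. A site without a peak in both lists of a clone therefore stands higher in its monocytes. Which later lists held a peak at this site is not given here, and the part of tied ranks was not tested. The site was singled out after its values were seen.

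The X chromosome lies outside the rule. Of 137 regions there with a peak in all 26 lists, ranked against the autosomal shared regions of each list, 7 (5.11%) met the limits for lower in monocytes and 25 those for higher, and the median difference was 5.04 points.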
